A study of Mus musculus with 12 samples.

Results

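Respiratory complex I, the NADH:ubiquinone oxidoreductase of the inner mitochondrial membrane, was described here gene by gene in RNA of mouse dorsal root ganglia (DRG). The members were the rows of the deposited count table whose Ensembl ID carries a symbol of the form Ndufa, Ndufb, Ndufc, Ndufs or Ndufv plus a digit, and the Ndufaf assembly factors were left out. This gave 39 of 14675 rows. Of these, 7 encode nuclear core subunits and 30 encode accessory subunits. The remaining genes are Ndufa4, now counted with complex IV, and its paralog Ndufa4l2, and they are given apart. A filter on low counts left 37 members for testing, and Ndufa4l2 and Ndufb4c did not pass it. The symbol pattern misses Ndufab1, the mitochondrial acyl carrier protein, which is also a complex I subunit.

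Complex I takes electrons from NADH, hands them to ubiquinone and pumps protons out of the matrix. Its N module binds NADH and flavin, its Q module reduces ubiquinone, and its membrane arm pumps protons. The core subunits, conserved from bacteria, carry out catalysis, and those of the membrane arm are encoded in mitochondrial DNA. The accessory subunits, added in eukaryotes, surround the core and are needed for its assembly and stability. Sensory neurons depend on oxidative phosphorylation to supply long axons, and loss of complex I function is a known cause of inherited neurological disease.

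All mice were RPL22HA+/+;Advillin-Cre+, so that sensory neurons that express Advillin-Cre carry an HA tag on RPL22, a protein of cytosolic ribosomes. Ribosomes were pulled down with anti-HA antibody (IP), and total RNA served as input. The 4 groups, with 3 libraries each, were IP with AAV-shGpr151 and AAV-e5'UTR, IP with AAV-shGpr151, input with both viruses, and input with AAV-shGpr151. They are called IP e5UTR, IP shGpr151, input e5UTR and input shGpr151. Every group carries the hairpin against Gpr151, so the knockdown itself cannot be read from these groups, and the content of the e5'UTR insert is not stated in the labels. The age label is "adult". The design text describes cultured neurons after a preconditioning nerve lesion, while the protocol describes fresh ganglia, and the sources used here leave this unresolved.

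Library totals were 1381220 to 1517685 counts in IP and 975403 to 985277 counts in input. Libraries of 1 group differed by little more than counting noise: 7.24% to 7.72% of genes had a chi-square p under 0.05. They were therefore summed to 1 pool per group, which leaves 2 pools per fraction. Orders of single libraries given below show counting spread within these pools and are not agreement of replicates. For IP against input, the share of all genes without overlap was not counted. Levels are CPM, counts scaled to a common library size by TMM, and IP pools had scaling factors of 1.375 and 1.388, input pools 0.725 and 0.722. Gpr151 stood at 20.5 CPM in the IP e5UTR pool, 18.8 in IP shGpr151, 13.7 in input e5UTR and 16.4 in input shGpr151. The 11 sensory neuron markers summed to 8801 and 9246 CPM in the IP pools and to 4675 and 4706 in the input pools. In the test of IP against input below, 8 of the 11 were higher and 1 lower, beside 33.5% and 36.2% of all genes tested. Snap25 went against the sum. It had 72.9 and 83.6 CPM in the IP e5UTR and IP shGpr151 pools, against 180 and 181 in the input pools. Summed CPM was 493 and 525 in IP against 1596 and 1596 in input for 11 Schwann cell markers, and 273 and 279 in IP against 1123 and 1171 in input for 6 satellite glia markers. For 9 macrophage markers it was 69.7 and 76.9 in IP against 169 and 170 in input, and for 6 fibroblast markers 68.7 and 87.7 in IP against 317 and 321 in input. Higher and lower in IP by the same test were 0 and 6 of 9 Schwann cell markers tested and 1 and 3 of 5 satellite glia markers. For macrophage markers these were 1 and 5 of 7, and for fibroblast markers 0 and 4 of 5. The satellite glia marker Glul had 99.6 and 118 CPM in the IP e5UTR and IP shGpr151 pools, against 32.5 and 24.4 in the input e5UTR and input shGpr151 pools. The 4 erythroid genes summed to 2.26 and 3.04 CPM in IP, where 1 or 2 of them were at 0, against 2318 and 2359 in input. The part of these other cells in the differences between IP and input was not tested, and in bulk RNA fewer cells of a type and less RNA per cell cannot be told apart.

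Most complex I mRNAs were found in the neuronal ribosome pull-down at levels close to or modestly above those in total RNA, and the core subunits Ndufv1 and Ndufs1 lay on opposite sides. Of 37 members tested, 18 were higher and 5 lower in IP than in input (edgeR quasi-likelihood test on 2 IP and 2 input pools, Benjamini-Hochberg adjusted p under 0.05). Over all 8085 genes tested, 33.5% were called higher and 36.2% lower, 69.7% in all. The 5 lower members were Ndufa10, Ndufs1, Ndufb5, Ndufa12 and Ndufa8. The members' median log2 of IP over input was 0.20, against 0.06 for all genes tested, and 26 of the 37 lay above the all-gene median. Without the input e5UTR pool 8 members were called higher and 2 lower, and without the input shGpr151 pool 7 and 2. Without the IP e5UTR pool 22 were called higher and 5 lower, and without the IP shGpr151 pool 26 and 5. With scaling by library total, which moves the median of all genes to 0.99, 35 members were called higher and 0 lower, beside 62.2% and 23.4% of all genes. The members' median minus the all-gene median was 0.14 under TMM, RLE and library-total scaling alike, so each value below is best read against the all-gene median. The 2 treatments gave similar ratios of IP over input: across the 37 members, which share the 4 pools, Pearson's r was 0.944 and Spearman's rho 0.946.

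**Figure D1:**
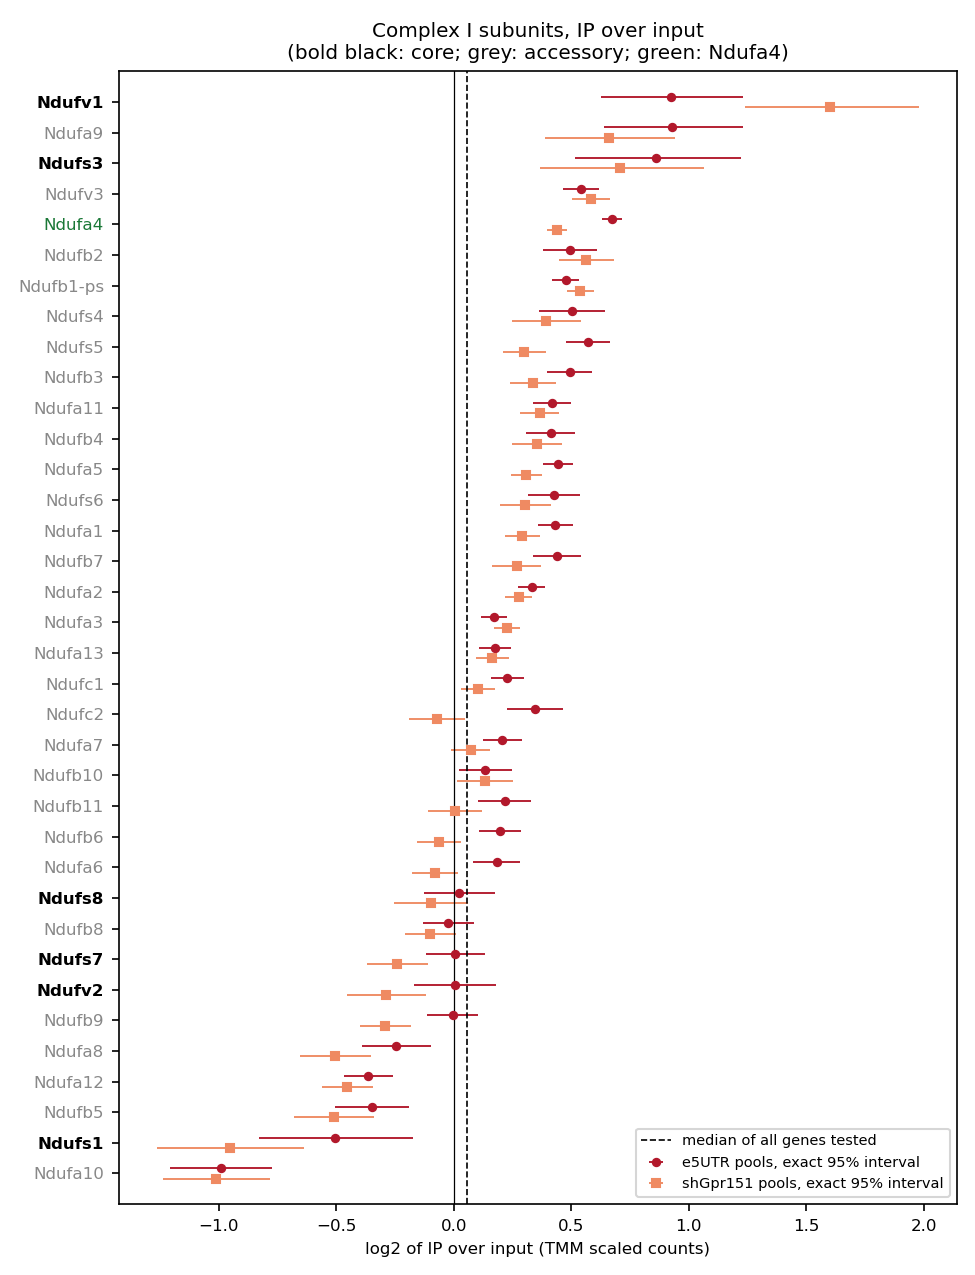
Log2 of IP over input for tested members, from TMM-scaled pooled counts, with exact 95% intervals for counting error, in e5UTR pools (red circles) and shGpr151 pools (orange squares). Core subunits are in bold black, accessory subunits in grey and Ndufa4 in green. Ndufv1 stands in the top row and Ndufa10 in the bottom row.

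Among core subunits of the N module, the tip of the peripheral arm, Ndufv1 and Ndufs1 went opposite ways. Ndufv1 (ENSMUSG00000037916), which binds NADH and the flavin, had 95.02, 101 and 101 CPM in IP e5UTR, 95.8, 106 and 99.4 in IP shGpr151, 53.1, 48.9 and 49.9 in input e5UTR, and 26.2, 38.7 and 32.1 in input shGpr151. All IP libraries were above all input libraries, and within input the e5UTR libraries were above the shGpr151 libraries. Ndufv1 was higher in IP, with a log2 of 1.23 ± 0.18 (SE of the fit; adjusted p = 3e-05). The pooled ratio of IP over input was 1.897 (1.54 to 2.35) with e5UTR and 3.03 (2.36 to 3.94) with shGpr151, where brackets give exact 95% intervals, and these intervals just miss each other. Ndufs1 (ENSMUSG00000025968), the large iron-sulfur subunit, had 37.03, 43.2 and 38 CPM in IP e5UTR, 39.2, 31.6 and 37.4 in IP shGpr151, 58.7, 48.9 and 55.4 in input e5UTR, and 62.1, 67.8 and 74.1 in input shGpr151. Here all IP libraries were below all input libraries. It was lower in IP, with a log2 of -0.73 ± 0.16 (adjusted p = 0.0011). Ndufv2 (ENSMUSG00000024099), which carries an iron-sulfur cluster beside the flavin, had 166, 183 and 172 CPM in IP e5UTR, 168, 165 and 155 in IP shGpr151, 180.4, 166 and 158 in input e5UTR, and 186, 198 and 196 in input shGpr151. The IP and input ranges overlapped, and its log2 of -0.14 ± 0.13 did not pass the test (adjusted p = 0.33).

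In the Q module, Ndufs3 was higher in IP while Ndufs7 and Ndufs8 were not called. Ndufs3 (ENSMUSG00000005510), an early subunit in assembly of the Q module, had 72.6, 60.7 and 77.5 CPM in IP e5UTR, 71.4, 59.04 and 69.5 in IP shGpr151, 37.8, 37.8 and 37.4 in input e5UTR, and 46.9, 44.3 and 27.9 in input shGpr151. Its IP libraries all lay above the input libraries, with a log2 of 0.78 ± 0.15 (adjusted p = 0.00038).

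Ndufs7 (ENSMUSG00000020153), which holds the last iron-sulfur cluster before ubiquinone, had 343, 344 and 312 CPM in IP e5UTR, 288, 264 and 301 in IP shGpr151, 308, 331 and 327 in input e5UTR, and 349, 321 and 312 in input shGpr151. The fractions overlapped, while within IP the e5UTR libraries were all above the shGpr151 libraries. Its log2 of IP over input was -0.11 ± 0.12 (adjusted p = 0.43). Ndufs8 (ENSMUSG00000059734), which passes electrons on to Ndufs7, had 240.2, 223 and 229 CPM in IP e5UTR, 194, 206 and 217 in IP shGpr151, 249, 204 and 209 in input e5UTR, and 208, 214 and 221 in input shGpr151. Its fractions overlapped as well (log2 -0.03 ± 0.12, adjusted p = 0.81). The median log2 over the 7 nuclear core subunits was -0.03.

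**Figure D2:**
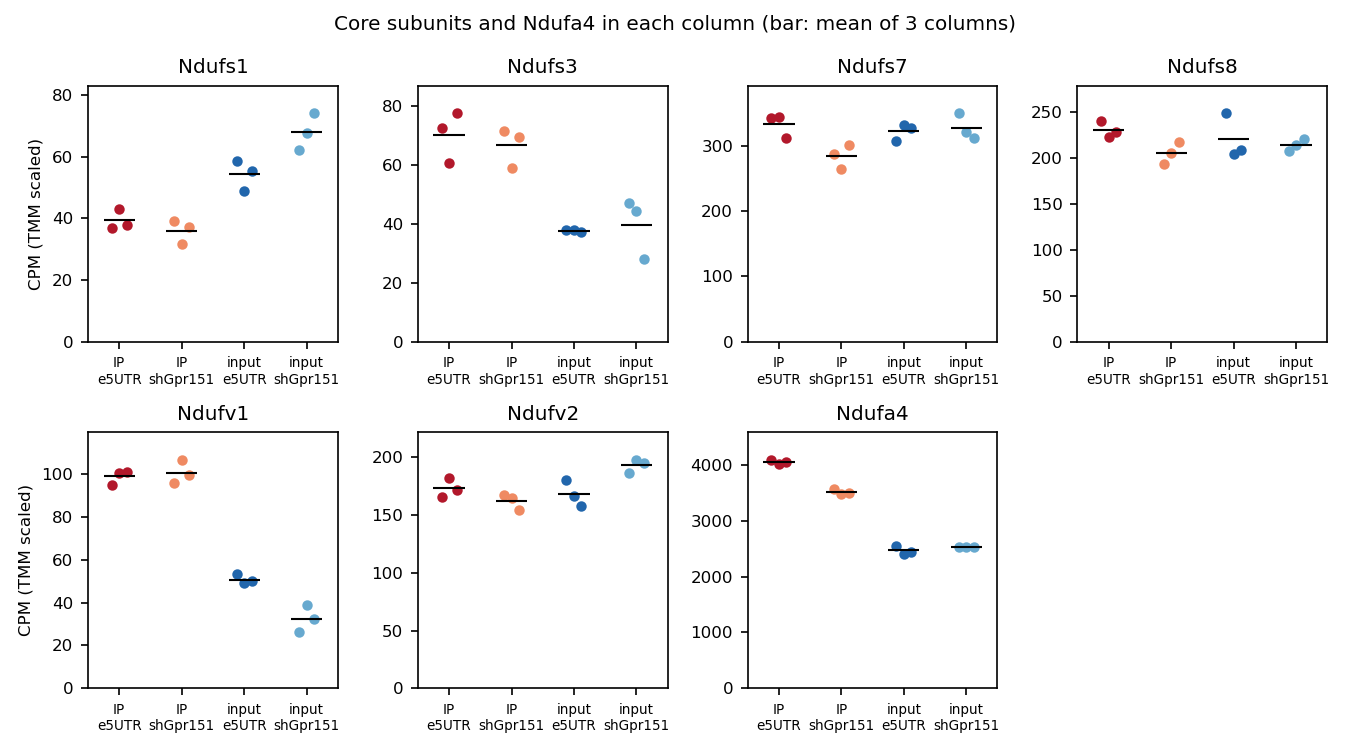
CPM of nuclear core subunits and Ndufa4 in each of the 12 libraries, with a bar at the mean of each group's 3 libraries. Ndufs3, Ndufv1 and Ndufa4 sit higher in IP, Ndufs1 sits lower, and Ndufs7, Ndufs8 and Ndufv2 overlap.

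Of the 29 accessory subunits tested, 14 were higher in IP, 4 were lower and 11 did not pass, with a median log2 of 0.20 and a range of -1.0 to 0.79. In the N module, counting core and accessory members, 5 of 10 were higher and 2 lower. Ndufv3, a small subunit at the NADH-binding tip, had 1155, 1153 and 1127 CPM in IP e5UTR, 1115, 1119.7 and 1123 in IP shGpr151, 784, 766 and 745 in input e5UTR, and 700.03, 731 and 756 in input shGpr151. All IP libraries were above all input libraries (log2 0.56 ± 0.10, adjusted p = 0.0003). Ndufs4, needed to hold the N module on the rest of the complex and deleted in a mouse model of Leigh syndrome, had 356, 358 and 353 CPM in IP e5UTR, 329.7, 309 and 293 in IP shGpr151, 217, 253 and 262 in input e5UTR, and 215, 245 and 232 in input shGpr151. It too was higher in every IP library, with a log2 of 0.45 ± 0.12 (adjusted p = 0.0048). Ndufa12, the paralog of the assembly factor Ndufaf2, had 394, 411 and 395 CPM in IP e5UTR, 369, 354 and 344 in IP shGpr151, 487, 496 and 518 in input e5UTR, and 486, 468 and 471 in input shGpr151. Its IP libraries all lay below the input libraries, and in both fractions the e5UTR libraries were above the shGpr151 libraries. The log2 of IP over input was -0.41 ± 0.12 (adjusted p = 0.0064).

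Ndufa6, which anchors the acyl carrier protein on the peripheral arm, had 549.7, 594 and 586 CPM in IP e5UTR, 539.8, 521 and 510.4 in IP shGpr151, 478, 492 and 511 in input e5UTR, and 573, 529 and 519.8 in input shGpr151. IP and input overlapped, but e5UTR stood above shGpr151 in IP and below it in input. The log2 of IP over input was 0.05 ± 0.11 (adjusted p = 0.7). Ndufa7, a small subunit of the peripheral arm, had 870.3, 865 and 850.1 CPM in IP e5UTR, 781, 821 and 805 in IP shGpr151, 731, 717 and 729.8 in input e5UTR, and 735, 740.3 and 759 in input shGpr151. All IP libraries were above all input libraries, yet the log2 of 0.14 ± 0.11 did not pass over the pools (adjusted p = 0.25). The other N module members, Ndufs6 and Ndufa2, were higher in IP, with log2 values of 0.36 ± 0.11 and 0.30 ± 0.10 (adjusted p = 0.0098 and 0.015).

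Both accessory subunits of the Q module, Ndufa9 and Ndufa5, were higher in IP. Ndufa9, which binds a nucleotide cofactor near the join of the arms, had 104, 100.03 and 104 CPM in IP e5UTR, 96.3, 105 and 102 in IP shGpr151, 46.1, 61.5 and 49.9 in input e5UTR, and 59.4, 56.7 and 71.3 in input shGpr151. Its IP libraries were all above its input libraries, and its log2 of 0.79 ± 0.14 was the highest of the tested accessory subunits (adjusted p = 0.00022). Ndufa5, a small subunit on the peripheral arm, had 1557, 1615 and 1571 CPM in IP e5UTR, 1436, 1480.3 and 1486 in IP shGpr151, 1137, 1218 and 1039 in input e5UTR, and 1171, 1162 and 1135 in input shGpr151. All IP libraries were above input, and within IP e5UTR was above shGpr151 (log2 of IP over input 0.38 ± 0.10, adjusted p = 0.0052).

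In the proximal membrane arm, next to the peripheral arm, 3 of 9 members were higher in IP and 2 lower. Ndufa10, a subunit with a nucleoside kinase fold, had 67.7, 78.7 and 69.2 CPM in IP e5UTR, 71.98, 56.9 and 69.5 in IP shGpr151, 129, 147 and 141 in input e5UTR, and 106, 144 and 139.7 in input shGpr151. It was lower in every IP library, and its log2 of -1.0 ± 0.13 was the lowest of the tested members (adjusted p = 1.1e-05), with pooled ratios of 0.503 (0.433 to 0.584) with e5UTR and 0.496 (0.424 to 0.581) with shGpr151. Ndufa8, a cysteine-rich subunit on the intermembrane side, had 196, 233 and 227 CPM in IP e5UTR, 172, 197 and 189.9 in IP shGpr151, 261, 259 and 235 in input e5UTR, and 272, 226 and 275 in input shGpr151. Its ranges overlapped, with 2 IP e5UTR libraries above the lowest input library, and its log2 was -0.37 ± 0.13 (adjusted p = 0.018).

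Ndufa1, a small membrane subunit needed for assembly, had 1209, 1161 and 1172 CPM in IP e5UTR, 1084, 1058 and 1096 in IP shGpr151, 873, 824 and 856 in input e5UTR, and 891, 839.97 and 849 in input shGpr151. IP lay above input throughout, and e5UTR above shGpr151 within IP (log2 of IP over input 0.36 ± 0.11, adjusted p = 0.0076). Ndufa11, a membrane subunit related in fold to the Tim17 import proteins, had 1043, 1044 and 999.7 CPM in IP e5UTR, 957, 945 and 908 in IP shGpr151, 773, 779 and 695 in input e5UTR, and 693, 711 and 722 in input shGpr151. The same order was seen, with a log2 of 0.39 ± 0.11 for IP over input (adjusted p = 0.0054). Ndufs5, a cysteine-rich subunit of the intermembrane side, had 813, 863 and 828 CPM in IP e5UTR, 750.5, 750.2 and 751 in IP shGpr151, 539.8, 538 and 561 in input e5UTR, and 561, 601 and 623 in input shGpr151. It was higher in IP (log2 0.44 ± 0.11, adjusted p = 0.0035), and its e5UTR libraries were above the shGpr151 libraries in IP only.

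Ndufa13, also known as GRIM-19, had 1283, 1254 and 1242 CPM in IP e5UTR, 1127, 1162 and 1161 in IP shGpr151, 1074, 1077 and 1105 in input e5UTR, and 1027, 994 and 985 in input shGpr151. IP libraries all lay above input, and e5UTR above shGpr151 in both fractions, but the log2 of IP over input, 0.17 ± 0.11, did not pass (adjusted p = 0.17). Ndufc1, a small membrane subunit, had 1155, 1135 and 1133 CPM in IP e5UTR, 1037, 1066 and 1059 in IP shGpr151, 951, 886 and 1003 in input e5UTR, and 978, 965 and 929 in input shGpr151. It showed the same IP order with overlapping input groups, and a log2 of 0.17 ± 0.11 (adjusted p = 0.17). Ndufc2, its neighbour in the complex, had 457, 443 and 449.7 CPM in IP e5UTR, 352, 332 and 393 in IP shGpr151, 345, 354 and 334 in input e5UTR, and 349, 363 and 393 in input shGpr151. Its e5UTR libraries stood clear of shGpr151 in IP, while the IP shGpr151 libraries overlapped input. The log2 of IP over input was 0.15 ± 0.13 (adjusted p = 0.33). For the remaining member, Ndufa3, it was 0.20 ± 0.10 (adjusted p = 0.092).

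In the distal membrane arm, the far end of the proton pump, 5 of 11 tested members were higher in IP and 1 lower. Ndufb2 had 509, 522 and 512 CPM in IP e5UTR, 524, 526 and 516 in IP shGpr151, 327, 378 and 360.1 in input e5UTR, and 344, 327 and 362 in input shGpr151. All IP libraries were above input and the treatments overlapped (log2 0.53 ± 0.11, adjusted p = 0.00077). Ndufb1-ps, the locus that RefSeq lists as Ndufb1, had 2078, 1997 and 2033 CPM in IP e5UTR, 2127, 2174 and 2137 in IP shGpr151, 1355, 1475 and 1438 in input e5UTR, and 1453, 1413 and 1456 in input shGpr151. IP was above input in every library, and within IP the e5UTR libraries were below the shGpr151 libraries. Its log2 of IP over input was 0.51 ± 0.10 (adjusted p = 0.00049). Ndufb3 had 737, 697 and 737 CPM in IP e5UTR, 658, 633 and 658 in IP shGpr151, 481, 487 and 532 in input e5UTR, and 471, 518 and 518 in input shGpr151. IP was again above input throughout, with a log2 of 0.42 ± 0.11 (adjusted p = 0.0044). Ndufb7, another cysteine-rich subunit of the intermembrane side, had 621, 616 and 596 CPM in IP e5UTR, 564, 557 and 559 in IP shGpr151, 449, 424 and 442 in input e5UTR, and 447, 477 and 436 in input shGpr151. Its log2 of IP over input was 0.35 ± 0.11 (adjusted p = 0.012), with no overlap between fractions.

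Ndufb5 was the lower member of the distal arm, at 179.8, 176 and 171 CPM in IP e5UTR, 146, 140.2 and 155 in IP shGpr151, 196, 235 and 222 in input e5UTR, and 196, 201 and 217 in input shGpr151. Every IP library was below every input library, and within IP e5UTR lay above shGpr151. The log2 of IP over input was -0.42 ± 0.13 (adjusted p = 0.01). Ndufb9, which anchors the acyl carrier protein on the membrane arm, had 468, 447 and 443 CPM in IP e5UTR, 403, 406 and 392 in IP shGpr151, 459, 435 and 431 in input e5UTR, and 452, 466 and 516 in input shGpr151. Its fractions overlapped (log2 -0.15 ± 0.12, adjusted p = 0.28). Ndufb6 had 713, 673 and 708 CPM in IP e5UTR, 593, 583 and 603 in IP shGpr151, 599.9, 538 and 637 in input e5UTR, and 650.3, 581 and 581 in input shGpr151. The IP e5UTR libraries were the highest of the 12, while IP shGpr151 overlapped input (log2 of IP over input 0.07 ± 0.12, adjusted p = 0.59). Ndufb11, an X-linked subunit, had 461, 447 and 452 CPM in IP e5UTR, 403, 397 and 428 in IP shGpr151, 394, 373 and 371 in input e5UTR, and 405, 382 and 408 in input shGpr151. IP shGpr151 overlapped input here too (log2 0.11 ± 0.11, adjusted p = 0.4), and RefSeq places Rbm10 over part of the locus. Ndufb4, Ndufb8 and Ndufb10 had log2 values of 0.38 ± 0.11, -0.06 ± 0.11 and 0.13 ± 0.12, and of these Ndufb4 passed (adjusted p = 0.0075). RefSeq also lists an overlapping gene at Ndufs1 (Ino80dos), Ndufa9 (1700018A23Rik), Ndufa10 (Mir6900), Ndufs7 (n-TNgtt7), Ndufv2 (Ankrd12 and Gm23264), Ndufa2 (Tmco6), Ndufa1 (Rnf113a1), Ndufa13 (Tssk6), Ndufa4l2 (Shmt2) and Ndufb4c (Mroh5), whose reads could be mixed with theirs without strand.

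Ndufa4 had 4089.8, 4019 and 4057 CPM in IP e5UTR, 3568, 3479 and 3490.4 in IP shGpr151, 2552, 2409 and 2448 in input e5UTR, and 2525, 2523 and 2537 in input shGpr151. All IP libraries were above all input libraries, and within IP the e5UTR libraries were above the shGpr151 libraries. Ndufa4 was higher in IP, with a log2 of 0.56 ± 0.10 (adjusted p = 0.00029). Its paralog Ndufa4l2, known as a gene induced by low oxygen, was barely detected, with 7, 3 and 2 counts in the IP e5UTR libraries, 5, 9 and 3 in IP shGpr151, 0, 0 and 1 in input e5UTR and 0 in each input shGpr151 library. With e5UTR the pools held 12 counts in IP and 1 in input, a scaled ratio of 4.07 (0.603 to 174). With shGpr151 they held 17 and 0, and the exact interval of the scaled ratio of IP over input began at 1.53. With the input pool set to a floor of 3 counts the ratio was 2.10, which is not a lower limit. Ndufb4c, whose sequence is close to that of Ndufb4, had 7 and 8 counts in the IP e5UTR and IP shGpr151 pools and 15 and 13 in the input e5UTR and input shGpr151 pools. The scaled ratio of IP over input was 0.158 (0.0546 to 0.413) with e5UTR and 0.228 (0.082 to 0.594) with shGpr151, and with no filter on low counts it was called lower in IP (edgeR, log2 -2.24, adjusted p = 0.00154). Its counts are uncertain, because the handling of reads that match both genes is unknown here. Outside the symbol pattern, Ndufab1 stood at 265 CPM in the IP e5UTR pool and 237 in IP shGpr151, against 377 in input e5UTR and 346 in input shGpr151, and was lower in IP (log2 -0.53 ± 0.12, adjusted p = 0.0015).

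In summed counts, which abundant genes dominate, accessory subunits were slightly more prominent against core subunits in IP than in input. Gene by gene the core subunits had no common direction, with Ndufv1 and Ndufs3 higher in IP and Ndufs1 lower. Summed accessory counts per summed core count were 22.2 (exact 95% interval 21.6 to 22.8) in the IP e5UTR pool and 23.2 (22.5 to 23.8) in IP shGpr151, against 20.5 (19.6 to 21.5) in input e5UTR and 20.1 (19.2 to 21.0) in input shGpr151. By library, IP ranged from 21.99 to 23.86 and input from 19.72 to 21.00. These ranges did not overlap, but the libraries of a group are not replicates, so this repeats the comparison of pools. IP over input of this ratio, which does not depend on scaling, was 1.08 (1.03 to 1.14) with e5UTR and 1.15 (1.09 to 1.22) with shGpr151. Single core genes moved it either way: without Ndufs7 it was 1.02 with e5UTR and 1.06 with shGpr151, and without Ndufv1 it was 1.13 and 1.25. Ndufs7 held 693 of 1871 core counts in the input e5UTR pool and 708 of 1930 in input shGpr151. All 39 members together took 3.74% of counts in the IP e5UTR pool and 3.53% in IP shGpr151, against 1.55% in input e5UTR and 1.56% in input shGpr151, before any scaling between fractions.

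**Figure D3:**
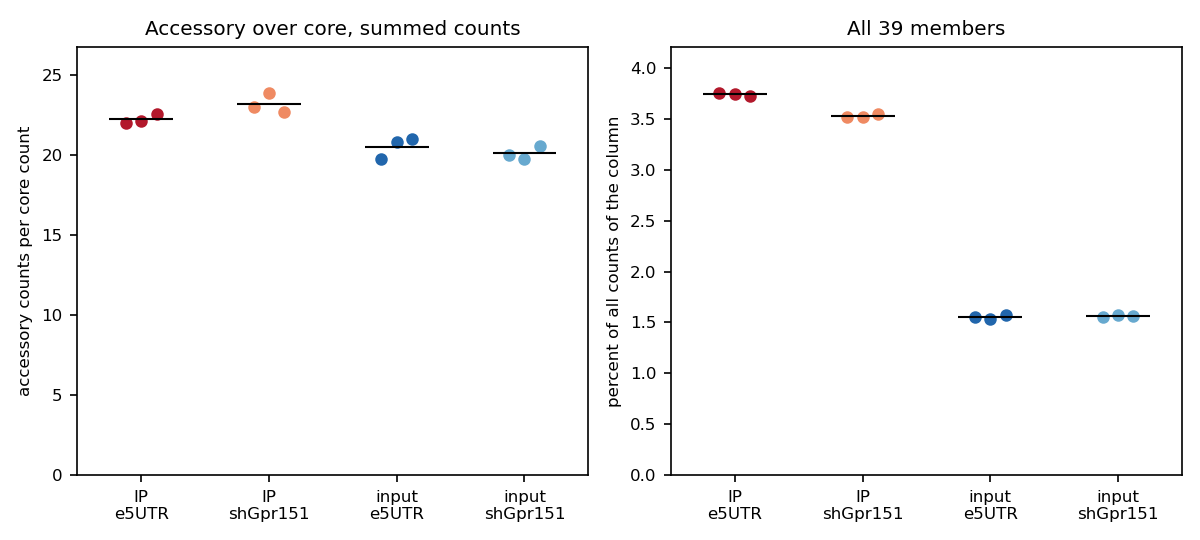
Left, summed accessory counts per summed core count in each library; right, percent of all counts taken by the 39 members. Bars are the mean of the 3 libraries of a group, and both measures are higher in all 6 IP libraries than in all 6 input libraries.

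The membrane-arm core subunits encoded in mitochondrial DNA had far lower ratios of IP over input than their nuclear partners. All 7 genes were lower in IP than in input, with a median log2 of -4.65 and a range of -5.78 to -3.01. The mRNA of mt-Nd1, a subunit at the heel of the membrane arm, had 656 and 699 counts in the IP e5UTR and IP shGpr151 pools, against 5969 and 6126 in the input e5UTR and input shGpr151 pools. Of 17 assembly factors tested, 2 were higher in IP and 5 lower, beside 33.5% and 36.2% of all genes tested, with a median log2 of 0.23. The higher ones were Ndufaf1, needed for the membrane arm (log2 1.58 ± 0.36), and Aifm1, which supports import of complex I proteins (log2 0.93 ± 0.31). The lower ones were Ndufaf2 (-0.89 ± 0.16), Ndufaf5 (-0.78 ± 0.19), Tmem126a (-0.73 ± 0.20), Ndufaf4 (-0.73 ± 0.22) and Ndufaf8 (-0.32 ± 0.13).

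Among nuclear subunits of the other respiratory complexes, too, more genes were called higher than lower. Of 42 tested genes of complexes II to V, 22 were higher in IP and 4 lower, beside 33.5% and 36.2% of all genes tested. Their median log2 was 0.31. Complex II had 1 higher and 1 lower of 4, namely Sdha (1.41 ± 0.18) and Sdhd (-0.90 ± 0.18), complex III had 6 higher of 9, complex IV 7 higher and 2 lower of 13, and complex V 8 higher and 1 lower of 16. The highest values there were those of Atp5b, the catalytic beta subunit of ATP synthase (log2 1.58 ± 0.13), and Sdha, the flavoprotein of complex II.

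**Figure D4:**
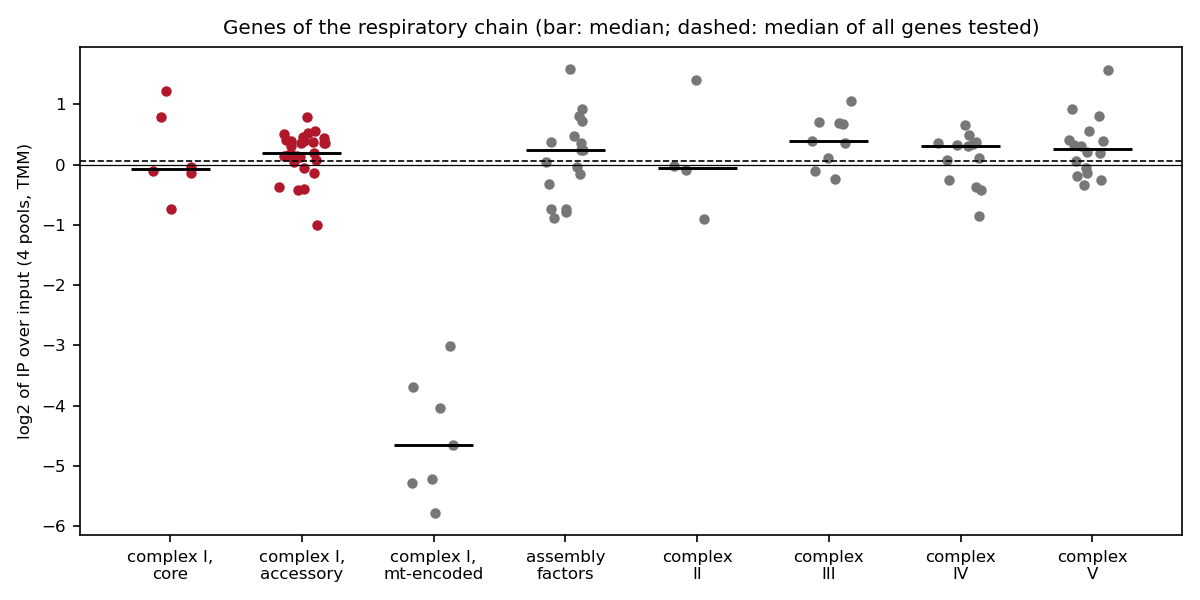
Log2 of IP over input from the fit on 4 pools for tested genes of complex I, its assembly factors and complexes II to V, with a bar at the median of the points drawn. The mitochondrially encoded subunits lie between -5.78 and -3.01, apart from the nuclear groups.

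Several complex I mRNAs share letters at their 5′ end. The sequence AAGATGGC was found on the sense strand within the first 50 bases after the RefSeq start (GRCm38.p6) in 7 of 33 members with a RefSeq start, or 21.2%, against 1.04% of 27025 genes. On either strand of the 300 bases around the start it was found in the same number of members, 7, and in 3.19% of genes. These letters are part of the longer start codon context known as TISU, a translation initiator of short 5′ leaders. They also overlap the binding motif of the factor YY1. The windows differ in the bases after the match. Whether a match is a full TISU or lies at the gene's start codon was not tested. The motif was chosen after the letters were seen, and a match is a description only. The windows are shown because ribosome-bound RNA was measured, with the motif in capitals, on the gene's own strand:
Ndufs7: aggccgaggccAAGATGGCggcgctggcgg
Ndufs4: ttgcctacaggAAGATGGCggcggtc
Ndufs6: gggtcaccggcAAGATGGCggcggtgct
Ndufa9: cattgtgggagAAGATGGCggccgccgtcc
Ndufa3: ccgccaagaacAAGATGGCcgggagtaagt
Ndufc1: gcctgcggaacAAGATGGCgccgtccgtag
Ndufb8: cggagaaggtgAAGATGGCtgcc

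One of these 7 genes, Ndufs7, is a core subunit and the other 6 are accessory. Their log2 of IP over input ranged from -0.11 for Ndufs7 to 0.79 for Ndufa9, with a median of 0.20, against a median of 0.26 for the 26 tested members with a start and no match. For e5UTR over shGpr151 in IP, the medians were 0.05 with the match and 0.13 without it.

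In IP, complex I mRNAs stood slightly higher relative to other genes with AAV-e5'UTR than without it. Called higher in every setting tried were Ndufc2 and Ndufa4. Ndufa4, given apart above as now counted with complex IV, is among the 37 members. Because each group is 1 pool, the test here is on the reads of these libraries, compares these libraries and not the conditions, and has no replicate check. Of 37 members, 20 were higher and 1 lower in IP e5UTR than in IP shGpr151 (edgeR on 12 libraries), beside 4.71% of all genes called higher and 6.25% called lower, 11.0% in all. The median log2 was 0.13 for members and 0.00 for all genes tested, and 33 of the 37 lay above the all-gene median. The calls rest on the scaling. With RLE size factors, 3 members were higher and 2 lower, beside 2.28% and 8.82% of all genes, and leaving out any single IP library gave 2 to 3 higher and 2 to 3 lower. In those fits the all-gene median moved to between -0.10 and -0.07, and the members' median minus it stayed at 0.12 to 0.14. Members are also deeply counted, with a median of 3169 and 2967 reads in the IP e5UTR and IP shGpr151 pools, against 96 and 89 over all genes tested, a depth at which smaller differences can pass.

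With TMM scaling the called members came from every module, and 1 of them, Ndufs7, was a core subunit. With RLE size factors 0 core subunits were called, and Ndufs7 passed in 12 of 20 settings of scaling, filter, tool and left-out library. Its log2 of e5UTR over shGpr151 in IP was 0.23 ± 0.05 (adjusted p = 0.0051), and the other core subunits described above did not pass, with values from -0.03 for Ndufv1 to 0.17 for Ndufs8. Among accessory subunits 18 of 29 were higher and 1 lower. The highest was Ndufc2, with a log2 of 0.33 ± 0.05 (adjusted p = 3e-05) and a pooled ratio of 1.25 (1.18 to 1.32). It passed in 20 of 20 settings of scaling, filter, tool and left-out library. So did Ndufa4, with a log2 of 0.21 ± 0.02 (adjusted p = 1.9e-08) and a pooled ratio of 1.15 (1.13 to 1.17). Ndufb6 was next in stability, higher in 16 of 20 settings, with a log2 of 0.23 ± 0.04 (adjusted p = 0.00019). The lower member, Ndufb1-ps, had a log2 of -0.08 ± 0.02 (adjusted p = 0.041) and was called lower in 19 of 20 settings.

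By position, 4 of 10 N module members were higher in IP e5UTR. With the log2 first and the adjusted p second, they were Ndufs4 (log2 0.19, adjusted p = 0.013), Ndufa12 (0.17, 0.0076), Ndufa6 (0.14, 0.021) and Ndufa7 (0.10, 0.024). In the Q module Ndufa5 joined Ndufs7, with a log2 of 0.11 (adjusted p = 0.017), so that 2 of 6 were higher. With TMM scaling the proximal membrane arm held the largest share, 7 of 9. Beside Ndufc2 these were Ndufa8 (log2 0.23, adjusted p = 0.036), Ndufs5 (0.15, 0.002), Ndufa11 (0.14, 0.0051), Ndufa13 (0.13, 0.00098), Ndufa1 (0.13, 0.0023) and Ndufc1 (0.11, 0.011). In the distal arm 6 of 11 were higher, namely Ndufb5 (log2 0.26, adjusted p = 0.013), Ndufb6, Ndufb9 (0.18, 0.0061), Ndufb3 (0.16, 0.0048), Ndufb11 (0.15, 0.018) and Ndufb7 (0.13, 0.02). These shares rest on the scaling too. With RLE size factors the proximal and distal arms had 1 higher and 1 lower member each, and the N and Q modules 0. In 23 of the 37 members the 3 IP e5UTR libraries were all above the 3 IP shGpr151 libraries, beside 14.0% of all genes tested, and these are the same libraries that gave the calls. Core and accessory subunits had the same median log2, 0.13.

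Ndufab1 was also higher in IP e5UTR (log2 0.17 ± 0.05, adjusted p = 0.044), as were 19 of 42 nuclear genes of complexes II to V, with 1 lower and a median log2 of 0.11, beside the 4.71% and 6.25% of all genes called higher and lower. Complex IV had 10 higher of 13. With RLE size factors 11 of the 42 were higher and 2 lower, and 6 of 13 in complex IV were higher, beside 2.28% and 8.82% of all genes. Of the mitochondrially encoded subunits 2 were lower in IP e5UTR, mt-Nd4 (-0.27 ± 0.08, adjusted p = 0.033) and mt-Nd5 (-0.92 ± 0.20, adjusted p = 0.0018). With RLE size factors 4 of the 7 were lower. The tag is on cytosolic ribosomes and these RNAs were scarce in IP (log2 of IP over input -5.78 to -3.01). What their remaining IP reads reflect was not tested. Of 17 assembly factors 1 was higher, a share near that of all genes.

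**Figure D5:**
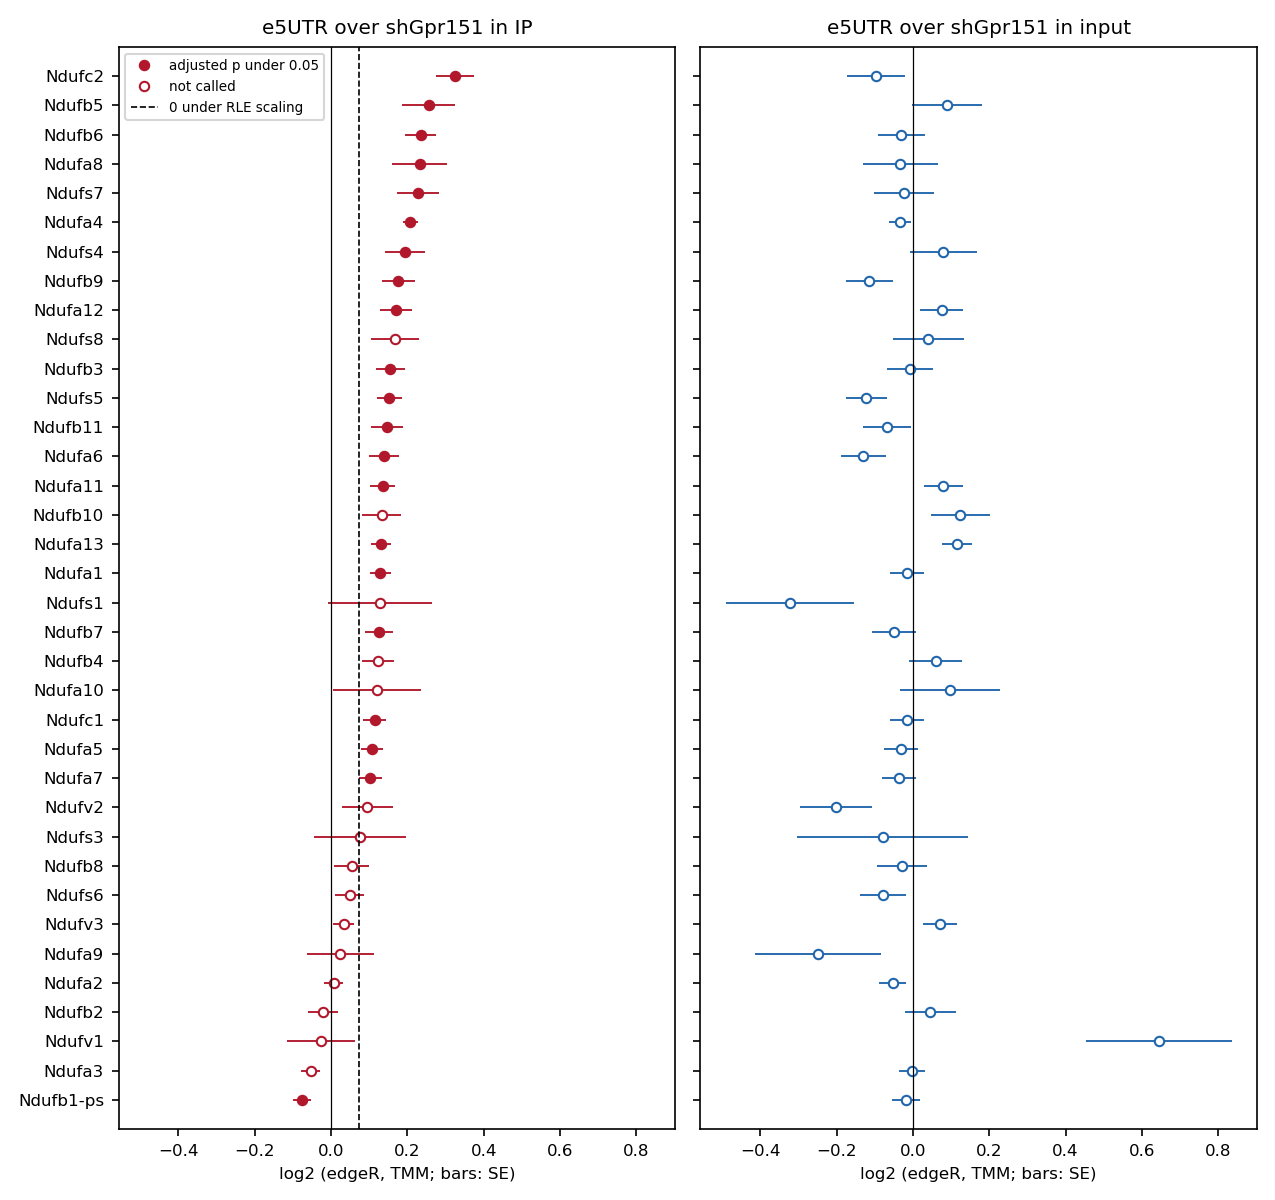
Log2 of e5UTR over shGpr151 for tested members in IP (left, red) and in input (right, blue), with bars for the SE of the fit on 12 libraries and filled circles where the adjusted p was under 0.05. The dashed line is where 0 would lie with RLE scaling in IP; most members lie to its right, and in input they scatter on both sides of 0.

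In total RNA 12 of the 37 members lay above the median of all genes and 25 below it. In input 0 members were higher and 0 lower with e5UTR, beside 0.0124% and 0.186% of all genes, or 0.198% in all, and 4 members had an unadjusted p under 0.05. DESeq2 and limma-voom also called 0. The median log2 was -0.03 for members and 0.01 for all genes. Input pools are shallower, with a median of 943 and 955 reads per member in input e5UTR and input shGpr151. The largest difference was that of Ndufv1, at 0.64 ± 0.19 (adjusted p = 0.51), from 109 reads in the input e5UTR pool and 70 in input shGpr151. Ndufs1 had -0.32 ± 0.17 (adjusted p = 0.97), from 117 and 147 reads in the same pools.

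The difference of these differences, the e5UTR effect in IP minus that in input, was tested in the same model. It was higher for 6 of 37 members and lower for 0, beside 1.57% of all genes higher and 3.54% lower, 5.11% in all, with a median of 0.14 for members and -0.01 for all genes. With RLE size factors 2 members were higher and 1 lower, beside 0.693% and 4.5% of all genes, and without single IP libraries 1 to 2 were higher and 0 to 3 lower. The 6 members were Ndufc2 (0.42 ± 0.09, adjusted p = 0.0037), Ndufb9 (0.29 ± 0.08, 0.017), Ndufs5 (0.28 ± 0.06, 0.0063), Ndufa6 (0.27 ± 0.07, 0.022), Ndufb6 (0.26 ± 0.07, 0.03) and Ndufa4 (0.24 ± 0.03, 2.7e-05). None of these was a core subunit. Core values of similar or larger size had larger SEs and did not pass: Ndufs1 (0.45 ± 0.22, adjusted p = 0.31), Ndufv2 (0.30 ± 0.12, 0.18) and Ndufs7 (0.25 ± 0.10, 0.16). Ndufs3 (0.16 ± 0.26, 0.85) and Ndufs8 (0.13 ± 0.11, 0.67) did not pass either. The calls therefore do not show that the difference was confined to accessory subunits. Ndufa4 passed in 20 of 20 settings, Ndufc2 in 19, Ndufs5 in 12, Ndufb9 in 9, Ndufa6 in 9 and Ndufb6 in 7. Among core subunits Ndufv1 had the most negative value, -0.67 ± 0.21 (adjusted p = 0.071), and it was called lower in 7 of 20 settings.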

How the data were processed

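The values are estimated counts per Ensembl gene deposited by the authors as whole numbers, from Oxford Nanopore cDNA-PCR libraries, per the labels' protocols. The submitters' processing notes name minimap2, Salmon, GRCm39 and mm39 but no versions (strand use: not given in the sources used here). No gene had a total under 13. Symbols were found for 13191 IDs (89.9%). The members and lists were chosen with earlier results of these data known. Members were named by class and module, by the 5 highest and 5 lowest accessory values in IP against input, and by any call with e5UTR. Counts over members include all of them, and the results of 1 member are not reported here.

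Genes were kept with filterByExpr of edgeR 4.0.16 in R 4.3.3 (minimum count 10, total 15), TMM scaling was used, and p-values were Benjamini-Hochberg adjusted over all 8085 genes (threshold 0.05). IP against input was fitted on 4 pools (biological coefficient of variation 10.3%), the e5UTR comparisons and the interaction on 12 libraries (2.58%). The spread behind all p-values is that between these samples and may be technical. The fits were also run on simulated counts. For the fit on 12 libraries these counts held no variation between pools, so they do not check its p-values as tests of conditions. Intervals on ratios and shares are exact binomial, on levels exact Poisson; as PCR reads are not independent molecules, intervals and floors cover counting error only. Alternatives were library-total and RLE scaling, DESeq2 1.42.0, limma-voom 3.58.1, other filters, a replicate block and left-out libraries. Sequences are RefSeq's (GRCm38.p6), and no GRCm39 coordinates were used here.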

Additional observations from a re-analysis of the deposited data

Results flagged for a closer look

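For 6 members the e5UTR effect in IP differed from that in input by the interaction test on 12 libraries, which compares these libraries and has no replicate check. The differences, on the log2 scale and as IP minus input, were 0.42 for Ndufc2 (e5UTR over shGpr151 0.33 in IP and -0.10 in input), 0.29 for Ndufb9 (0.18 in IP and -0.11 in input), and 0.28 for Ndufs5 (0.15 in IP and -0.12 in input). They were 0.27 for Ndufa6 (0.14 in IP and -0.13 in input), 0.26 for Ndufb6 (0.23 in IP and -0.03 in input), and 0.24 for Ndufa4 (0.21 in IP and -0.03 in input). Over 20 settings Ndufa4 passed in 20, Ndufc2 in 19, Ndufs5 in 12, Ndufb9 in 9, Ndufa6 in 9 and Ndufb6 in 7. In each of the 6 the effect was above 0 in IP and below 0 in input. Picking members by a positive difference favours such opposite signs. None of the 6 input values passed the edgeR test of e5UTR in input (adjusted p 0.97 to 0.99), so no decrease in input is shown.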

How the results depend on the processing

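With 1 pool a group, the precision is that of counting, and input pools of 70 to 147 counts limit Ndufs1, Ndufs3, Ndufv1 and Ndufa9. For IP against input, library-total scaling gave 35 members higher and 0 lower; it put above 0 the log2 values of Ndufs1 (0.20), Ndufv2 (0.79), Ndufb5 (0.51), Ndufa8 (0.56), Ndufs8 (0.90), Ndufs7 (0.82), Ndufa12 (0.53), Ndufb8 (0.87) and Ndufb9 (0.79). No filter gave 3 lower. Leaving out a pool or library gave 7 to 26 higher and 2 to 5 lower. Taken as 12 samples, with or without a replicate block, the libraries gave 27 higher and 6 lower.

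For e5UTR in IP, RLE and DESeq2 gave 3 higher and 2 lower each, and limma-voom gave 2 lower. Left-out libraries gave 2 to 21 higher and 1 to 3 lower; without any 1 of the 6 IP libraries 2 to 3 were higher. Over left-out libraries, 12 members changed sign in at least 1 fit, with values of -0.11 to -0.0046. Those called in 1 of the 2 fits compared ran from -0.11 (without IP shGpr151 replicate 2; -0.09 without IP e5UTR replicate 1) to 0.0061 for Ndufa2, and, lowest without IP shGpr151 replicate 1, from -0.013 to 0.10 for Ndufa7 and from -0.0046 to 0.11 for Ndufa5. For the interaction, RLE and DESeq2 gave 2 higher and 1 lower each, and left-out libraries 1 to 6 higher and 0 to 3 lower. The cause was not tested. The accessory over core result also depends on the summary used. The median accessory ratio of IP over input, divided by the median core ratio, was 1.24 with e5UTR and 1.25 with shGpr151. Summed counts gave 1.08 and 1.15. The core median rests on 7 genes without a common direction. The ratio of summed counts ran from 1.06 to 1.097 with e5UTR and from 1.14 to 1.17 with shGpr151 over left-out libraries.

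Replicate numbers did not pair the libraries: deviations of same-numbered libraries correlated at -0.06 to 0.04 over 18 pairs. With the replicate block, 20 members were higher and 0 lower for e5UTR in IP, and 6 higher and 0 lower for the interaction.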
